A study of Mus musculus with 39 samples.

Results

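The 8 genes described here are Madcam1, Itga4, Itgb7, Ccr9, Ccr6, Il17a, Il17f and Il23r, which were chosen by symbol as genes of gut homing and of type 17 immunity. All 8 were found among the 28023 gene symbols of each expression table. The study asked whether DAV132, an adsorbent that acts in the colon, lessens resistance to anti-PD-1 that follows antibiotic exposure, and its samples are 20 libraries of sorted CD8+ T cells from tumours and 19 libraries labelled bulk tumour. Each library was made from a wild-type C57Bl6 mouse tumour of MCA-205, a fibrosarcoma line that grows in this strain. Every mouse had received stool of human volunteers by faecal microbiota transplantation (FMT), from the CZA arm or from the CZA+DAV132 arm, each with an exposure of 6 days. The labels name CZA only by that abbreviation.

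Tumour cells were placed under the skin 2 weeks after FMT. Treatment began at a tumour size between 25 and 35 mm2, with 4 intraperitoneal injections of 250 µg at intervals of 3 days. Mice received anti-PD-1 (clone RMP1-14), which blocks the checkpoint receptor PD-1 on T cells, or an isotype antibody (clone 2A3), and were killed 2 days after the last injection. The 4 groups of each set were therefore CZA with isotype, CZA with anti-PD-1, CZA+DAV132 with isotype and CZA+DAV132 with anti-PD-1. Each group had 5 libraries, apart from CZA+DAV132 with isotype in the bulk tumour set, which had 4. The sets came from separate mice, with the same FMT material used again. Every group received CZA-exposed stool, so no group shows tumours without it. The labels do not say that each library came from a separate mouse, so p-values cover only how far these libraries differ among themselves. Both sets used the same FMT material, so a difference of arms seen in both is no independent repeat of the stool. The number of stool donors is not given here.

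The alpha4 chain (Itga4) and the beta7 chain (Itgb7) pair to form an integrin on lymphocytes, and its ligand MAdCAM-1 (Madcam1) lines venules of the intestine. The chemokine receptor CCR9 guides cells to CCL25 in the small intestine, and CCR6 follows CCL20 and is common on type 17 cells and B cells. IL-23, through its receptor chain IL-23R, sustains lymphocytes that make IL-17A and IL-17F. Alpha4 also pairs with beta1 (Itgb1), and beta7 with alphaE (Itgae), so neither chain belongs to the gut homing integrin alone.

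RefSeq promoters of GRCm38.p6, from 250 bases before to 50 bases after each annotated start, were found for all 8 genes. Those of 4 genes are shown. Il17a and Il17f hold the same 3 motifs near the start although their transcripts were scarce here. Itga4 and Itgb7 are the genes with the highest levels, and they did not move together. Capitals mark matches on either strand to AGGTCA, the half-site of nuclear receptors such as the retinoic acid receptors, to TGTGGT, the core of RUNX sites, and to TATAAA.
Il17a, chr1:20730655-20730954, plus strand: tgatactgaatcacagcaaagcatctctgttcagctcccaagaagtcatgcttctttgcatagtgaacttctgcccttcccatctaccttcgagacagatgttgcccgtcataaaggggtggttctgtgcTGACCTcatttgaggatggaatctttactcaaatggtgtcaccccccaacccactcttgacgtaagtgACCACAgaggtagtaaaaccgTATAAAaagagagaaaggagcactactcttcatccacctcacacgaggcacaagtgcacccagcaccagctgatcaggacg
Il17f, chr1:20784221-20784520, minus strand: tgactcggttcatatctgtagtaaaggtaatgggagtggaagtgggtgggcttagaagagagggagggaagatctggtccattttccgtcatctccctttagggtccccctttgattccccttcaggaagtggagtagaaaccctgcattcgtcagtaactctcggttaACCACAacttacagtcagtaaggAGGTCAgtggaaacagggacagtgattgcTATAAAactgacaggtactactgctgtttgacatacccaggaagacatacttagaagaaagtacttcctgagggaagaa
Itga4, chr2:79255176-79255475, plus strand: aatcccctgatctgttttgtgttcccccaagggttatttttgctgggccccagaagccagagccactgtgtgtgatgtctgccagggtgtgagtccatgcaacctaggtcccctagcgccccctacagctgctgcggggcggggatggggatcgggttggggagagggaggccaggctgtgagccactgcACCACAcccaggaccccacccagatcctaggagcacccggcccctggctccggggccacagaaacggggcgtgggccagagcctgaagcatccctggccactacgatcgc
Itgb7, chr15:102231886-102232185, minus strand: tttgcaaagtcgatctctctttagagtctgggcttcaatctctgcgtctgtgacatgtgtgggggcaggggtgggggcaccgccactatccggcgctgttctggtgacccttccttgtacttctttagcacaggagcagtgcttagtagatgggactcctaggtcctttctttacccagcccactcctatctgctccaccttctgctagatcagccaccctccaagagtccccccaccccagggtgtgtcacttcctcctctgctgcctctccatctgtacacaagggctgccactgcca
In Il17a the AGGTCA match began at -120 from the start, the TGTGGT match at -52 and the TATAAA match at -31. In Il17f the same matches began at -58, -81 and -29. Itga4 held TGTGGT at -60 and neither of the others, and Itgb7 held none of the 3. Of all 32851 promoters in the table, 16.3% held AGGTCA, 16.8% held TGTGGT and 13.6% held TATAAA, so single matches are common. No 2 matches overlapped in the promoters shown. A match describes letters in this window and shows no binding.

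Levels were deposited as TPM, transcript levels scaled by gene length and to a fixed total for each library, so genes can be set beside each other within a library. TPM keeps no read count and the sequencing depth is unknown, so a gene at 0 is said to be listed at 0. Libraries differed in the share of TPM on satellite and simple repeat entries, 18 entries of each table. That share ran from 0.351% to 69.9% in the CD8 set, with the highest values in libraries 19 and 16, at 69.9% and 29.2%, both of the CZA+DAV132 group with anti-PD-1. All 5 libraries of that group, at 12.0% or more, lay above all 5 of CZA+DAV132 with isotype, at 8.58% or less, so the repeat share moved with that comparison, and its part in the results was not tested. Library 1, of CZA with isotype, was at 25.6%, and 10 of the 20 CD8 libraries exceeded 10%. Of these, only 16 and 19 were left out together in the alternatives. The share was below 1% in 17 of the 19 libraries labelled bulk tumour, and 51.1% in T026 and 13.9% in T985. Since that total is fixed, these libraries leave less for every other gene. A list of 8 CD8 T cell markers summed to between 2364 and 10886 TPM in the CD8 set. For the libraries labelled bulk tumour the same list summed to between 2669 and 6640 TPM, and the 8 fibroblast and fibrosarcoma markers to between 360 and 1345 TPM. By median, most of the latter sum was Thy1, at 572 TPM, whereas Col1a1 had a median of 13.0 TPM. These libraries are called here by their label, although T cell transcripts lead them.

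Itgb7 and Itga4 were the abundant members in both sets, and the others were scarce or absent. In the CD8 set the median over 20 libraries was 59.3 TPM for Itgb7, 5.33 TPM for Itga4, 0.632 TPM for Ccr9, 0.231 TPM for Ccr6 and 0.0295 TPM for Il17a, and 0 for Il17f, Madcam1 and Il23r. The medians of the libraries labelled bulk tumour were 111 TPM for Itgb7, 15.2 TPM for Itga4, 1.53 TPM for Ccr9 and 0.0908 TPM for Il23r. Ccr6 was listed at 0 in 18 of those 19 libraries, and Madcam1, Il17a and Il17f in all 19. The order at the top was the same in each library: Itgb7 exceeded Itga4 and Itga4 exceeded Ccr9 in 20 of 20 and in 19 of 19. Below them it was not stable, since Ccr9 exceeded Ccr6 in 16 and Ccr6 exceeded Il17a in 11 of the 20 CD8 libraries. The sets were tabulated separately, which limits any comparison of levels between them.

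**Figure D1:**
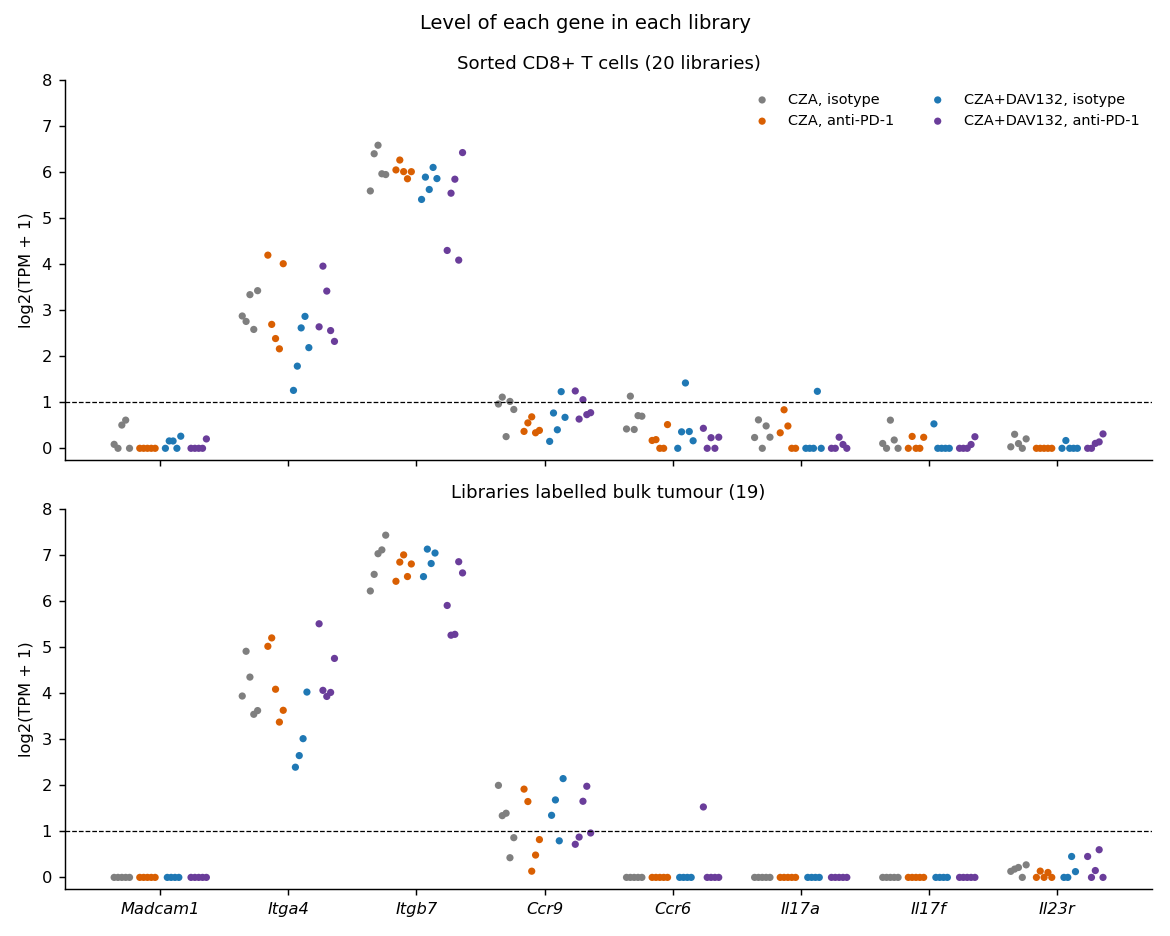
Each point is a library, with log2(TPM + 1) on the vertical axis, the 8 genes along the horizontal axis and the 4 groups in colour. The dashed line is 1 TPM. Itgb7 and Itga4 lie above it in every library, Ccr9 lies around it, and the other genes lie near 0 apart from single libraries of Ccr6 and Il17a.

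A gene was tested where 4 or more libraries of the set reached 1 TPM. The test was limma on log2(TPM + 1). P-values were adjusted over all such genes by the Benjamini-Hochberg method, and a gene was called at an adjusted p under 0.05. Of the 8 members, 3 passed that filter in each set, Itga4, Itgb7 and Ccr9, and 5 did not. Among CD8 libraries 0 of the 3 were called in each of the 5 comparisons. Of all 12942 genes tested, the called share was 0.0155% for anti-PD-1 against isotype in the CZA arm, 23.5% for the same comparison in the CZA+DAV132 arm and 0.0386% for CZA+DAV132 against CZA under anti-PD-1. It was 0% under isotype and 0% for the interaction of arm and antibody. In the libraries labelled bulk tumour 0 of the 3 were called in each of the 5 comparisons. There the called share of 13326 genes was 0.285% for anti-PD-1 in the CZA arm, 0.24% for anti-PD-1 in the CZA+DAV132 arm, 0% for the arms under anti-PD-1, 0.113% for the arms under isotype and 0.045% for the interaction. At an unadjusted p under 0.05 by limma, the members numbered 1 in each of 3 CD8 comparisons, and in the bulk tumour set 2 for anti-PD-1 in the CZA+DAV132 arm and 1 in each comparison of arms. Of all genes in the CD8 set, 4775 of 12942 were at that level for anti-PD-1 in the CZA+DAV132 arm, 4338 for the arms under anti-PD-1, 320 for the arms under isotype and 2036 for the interaction. In the bulk tumour set they were 1370 of 13326 for anti-PD-1 in the CZA+DAV132 arm, 1010 for the arms under anti-PD-1 and 1454 under isotype.

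Itga4, which encodes the alpha4 chain (ENSMUSG00000027009, chr2:79255426-79333123 of GRCm38), was lowest in the CZA+DAV132 isotype group in both sets. Its CD8 levels were 4.98, 5.74, 6.32, 9.09 and 9.72 TPM with CZA and isotype, and 1.39, 2.44, 3.55, 5.12 and 6.28 TPM with CZA+DAV132 and isotype. With anti-PD-1 they were 3.47, 4.21, 5.45, 15.1 and 17.3 TPM in the CZA arm and 3.99, 4.88, 5.22, 9.65 and 14.5 TPM in the CZA+DAV132 arm. All 4 groups overlapped, and each anti-PD-1 group held 2 libraries that stood above the rest of the group, 9 and 10 in the CZA arm and 17 and 18 in the other.

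Among libraries labelled bulk tumour Itga4 was at 4.25, 5.25, 7.06 and 15.3 TPM with CZA+DAV132 and isotype, and at 14.2, 15.2, 15.7, 26 and 44.4 TPM with CZA+DAV132 and anti-PD-1. Those groups overlapped only through T028, at 15.3 TPM in the isotype group. In the CZA arm the levels were 10.6, 11.3, 14.3, 19.4 and 29 TPM with isotype and 9.35, 11.4, 16.0, 31.3 and 35.7 TPM with anti-PD-1, which overlapped widely.

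Itgb7, which encodes the beta7 chain (ENSMUSG00000001281, chr15:102215995-102231944), had its lowest libraries in the CZA+DAV132 group with anti-PD-1 in both sets. In that CD8 group it was at 16.0, 18.6, 45.4, 56.3 and 84.6 TPM. In the other CD8 groups it was at 41.3, 48.1, 56.9, 58.1 and 67.4 TPM with CZA+DAV132 and isotype, at 47.0, 60.5, 61.2, 83.1 and 94.6 TPM with CZA and isotype, and at 56.7, 63.2, 63.2, 64.9 and 75.5 TPM with CZA and anti-PD-1. The 2 lowest were libraries 19 and 16, those with most repeat entries, and library 20 of the same group was the second highest of the set.

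Levels of Itgb7 in the libraries labelled bulk tumour were 37.2, 37.7, 58.8, 96.6 and 115 TPM with CZA+DAV132 and anti-PD-1, and 91.3, 111, 131 and 139 TPM with CZA+DAV132 and isotype. With CZA it was at 73.4, 94.5, 129, 137 and 171 TPM under isotype and at 85.0, 91.4, 111, 114 and 127 TPM under anti-PD-1. The 3 lowest libraries of the set, T023, T026 and T021, were all in the CZA+DAV132 group with anti-PD-1. T026 had 51.1% of its TPM on repeat entries, whereas T023 and T021 had 0.629% and 0.337%.

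**Figure D2:**
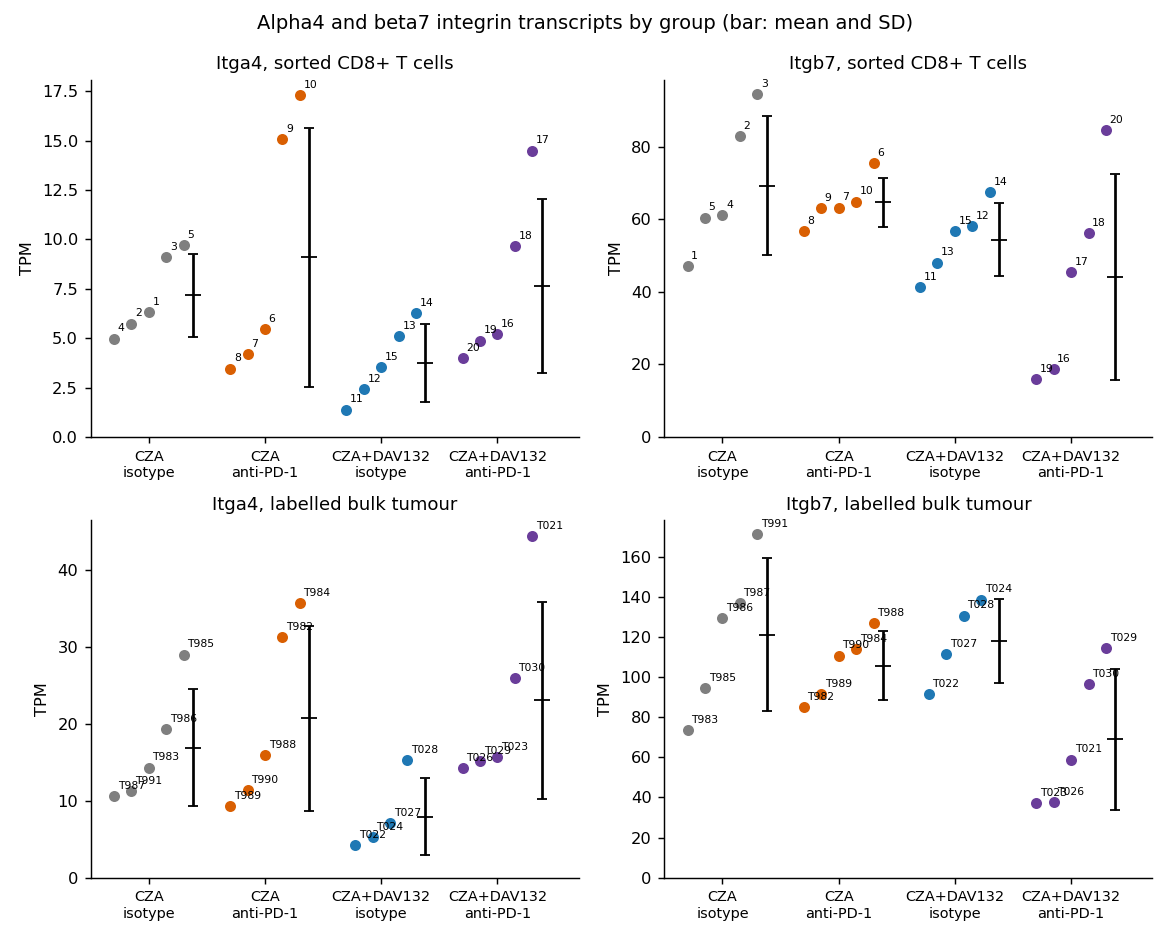
TPM of Itga4 (left) and Itgb7 (right) by group in sorted CD8+ T cells (top) and in libraries labelled bulk tumour (bottom). Points are libraries with their numbers, and bars give the mean and SD. In the CZA+DAV132 arm the mean of Itga4 was higher with anti-PD-1 and that of Itgb7 lower, with overlapping libraries in all 4 panels.

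In the CZA+DAV132 arm Itga4 was higher with anti-PD-1 than with isotype and Itgb7 lower, in both sets, and neither passed the test. Mean Itga4 in the CD8 set was 7.65 ± 4.41 TPM (SD, n = 5) with anti-PD-1 and 3.76 ± 1.97 TPM (SD, n = 5) with isotype. The difference was 0.84 on the log2(TPM + 1) scale (SE 0.40, 95% interval 0.005 to 1.67, limma adjusted p = 0.133), and all 5 anti-PD-1 libraries exceeded the isotype mean. Itgb7 was 44.2 ± 28.4 TPM (SD, n = 5) against 54.4 ± 10.0 TPM (SD, n = 5), a difference of -0.54 (SE 0.34, adjusted p = 0.263 by limma). The median difference over all genes tested was -0.34. The difference of Itgb7 turned to 0.16 without libraries 16 and 19 (limma adjusted p = 0.664) and was -0.07 with median-ratio scaling. That scaling divides each library by its median ratio to the average library, over the genes above 0 in every library. Without library 20 the difference of Itgb7 was -0.83 with a limma adjusted p of 0.0431, so its call rests on which of these libraries is kept. Itga4 was called as higher with median-ratio scaling (1.26, adjusted p = 0.0266) and with array weights (1.24, adjusted p = 0.0272), and over all alternatives its adjusted p ran from 0.0266 to 0.298.

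Mean Itga4 in the libraries labelled bulk tumour was 23.1 ± 12.8 TPM (SD, n = 5) with anti-PD-1 and 7.95 ± 5.00 TPM (SD, n = 4) with isotype in the CZA+DAV132 arm. The difference was 1.43 (SE 0.49, 95% interval 0.41 to 2.46, limma adjusted p = 0.230). It was 1.72 with array weights, where the adjusted p was 0.0499, and the adjusted p ran from 0.0499 to 0.498 over the alternatives. Itgb7 was 69.0 ± 35.1 TPM (SD, n = 5) against 118 ± 21.1 TPM (SD, n = 4), a difference of -0.90 (SE 0.34, limma adjusted p = 0.295). It was -0.72 without T026 and T985. Over all genes tested the median difference was -0.15 in the main test. All 5 anti-PD-1 libraries were above the isotype mean for Itga4 and below it for Itgb7. The share of all genes with every library on the same side of the isotype mean was not counted in either set. These counts therefore have no background to be read against.

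In the CZA arm the same comparison gave differences near 0. Itga4 differed by 0.09 (95% interval -0.74 to 0.92) in the CD8 set and by 0.19 (-0.78 to 1.15) in the libraries labelled bulk tumour, and Itgb7 by -0.06 (-0.77 to 0.65) and -0.15 (-0.82 to 0.52). The interaction, the anti-PD-1 difference in the CZA+DAV132 arm minus that in the CZA arm, was 0.74 for Itga4 in the CD8 set (limma adjusted p = 0.492) and 1.25 in the other set (limma adjusted p = 0.534). For Itgb7 it was -0.48 (limma adjusted p = 0.595) and -0.75 (limma adjusted p = 0.591). The effects of anti-PD-1 were therefore not shown to differ between the arms.

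Between the arms, Itga4 was lower with CZA+DAV132 than with CZA under isotype, by -0.85 in the CD8 set (SE 0.40, limma adjusted p = 1.00) and by -1.05 in the libraries labelled bulk tumour (SE 0.49, limma adjusted p = 0.446). The libraries with CZA+DAV132 were all below the CZA mean, 5 of 5 and 4 of 4, and how many of all genes did so was not counted. Under anti-PD-1 the alpha4 transcript differed by -0.11 and 0.19. Itgb7 was lower with CZA+DAV132 under anti-PD-1, by -0.80 in the CD8 set (SE 0.34, limma adjusted p = 0.113) and by -0.74 in the other (SE 0.32, limma adjusted p = 0.594). The median difference over all genes tested was -0.40 and -0.19 in that comparison, so part of each value was shared by the other genes. Without libraries 16 and 19 the CD8 difference of Itgb7 was -0.10, and without library 20 it was -1.09 with an adjusted p of 0.0211. Under isotype Itgb7 differed by -0.32 and 0.01. These comparisons share their groups with those of anti-PD-1 above, so a group that is low or high enters 2 of them.

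**Figure D3:**
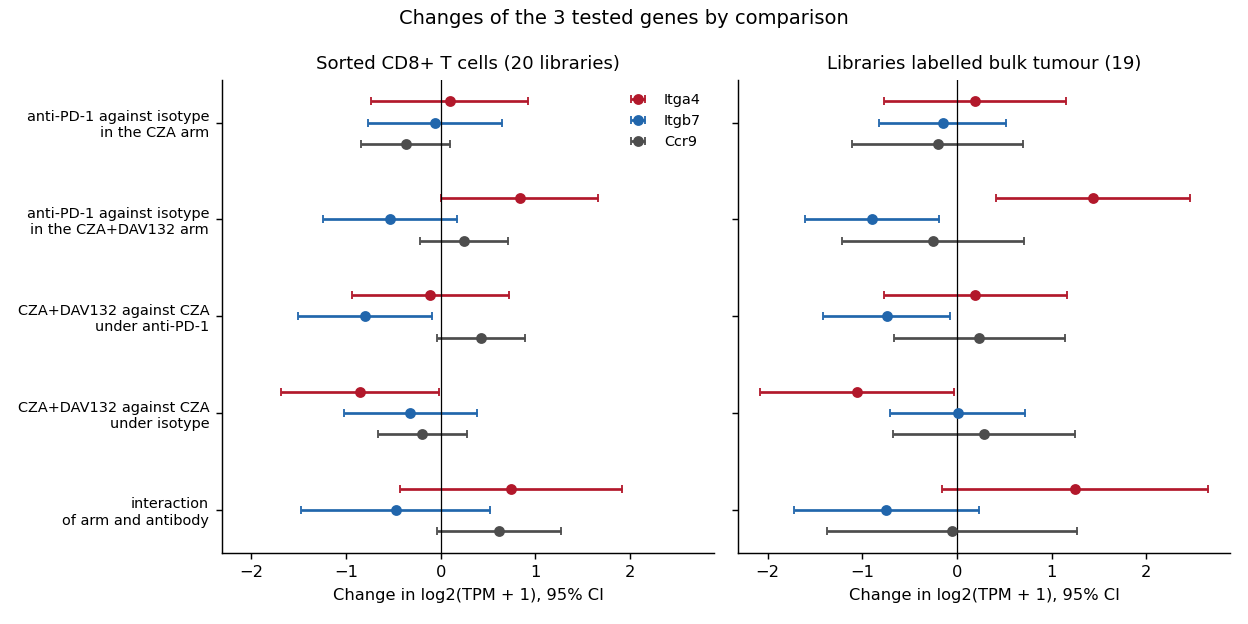
Difference in log2(TPM + 1), with its 95% interval from limma, for Itga4, Itgb7 and Ccr9 in each of the 5 comparisons, in the CD8 set (left) and the libraries labelled bulk tumour (right). For anti-PD-1 in the CZA+DAV132 arm the estimate lies above 0 for Itga4 and below 0 for Itgb7 in both sets. The CD8 interval of Itgb7 there, from -1.24 to 0.17, includes 0. None of the 3 genes was called after adjustment.

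The ratio of Itga4 to Itgb7 within a library does not depend on how much TPM other transcripts take. It was formed after the values had been seen, so it is given as a description with no test. For libraries labelled bulk tumour with CZA+DAV132 it was 0.0379, 0.0465, 0.0634 and 0.117 under isotype and 0.132, 0.269, 0.377, 0.421 and 0.755 under anti-PD-1, so these groups did not overlap. For CD8 libraries it was 0.0337, 0.0420, 0.0624, 0.0931 and 0.106 under isotype and 0.0472, 0.171, 0.280, 0.306 and 0.319 under anti-PD-1. There 4 of the 5 anti-PD-1 libraries lay above every isotype library and library 20 lay among them. In the CZA arm the groups overlapped, with 0.0692 to 0.161 under isotype and 0.0611 to 0.266 under anti-PD-1 in the CD8 set, and 0.0660 to 0.307 and 0.102 to 0.369 in the other. The lowest ratio of each set lay in the CZA+DAV132 group with isotype. How often ratios of other genes separate these groups was not counted, so the lack of overlap has no background.

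**Figure D4:**
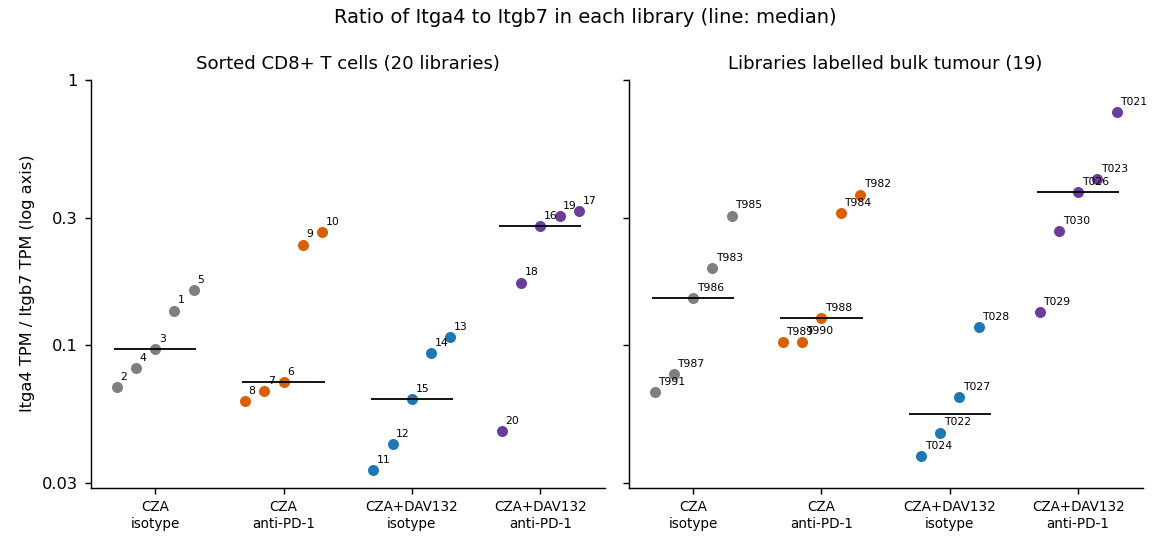
TPM of Itga4 divided by TPM of Itgb7 in each library, on a log axis, by group, with the median as a line, for sorted CD8+ T cells (left) and libraries labelled bulk tumour (right). In the CZA+DAV132 arm the anti-PD-1 libraries lie above the isotype libraries, except library 20 at 0.0472.

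Other transcripts moved in the same comparison, and their part in the values of Itga4 and Itgb7 was not tested. Among CD8 libraries the 8 macrophage and monocyte markers summed to between 1645 and 3005 TPM with CZA+DAV132 and isotype and to between 332 and 1254 TPM with CZA+DAV132 and anti-PD-1, and 3 of the 8 tested were called as lower, where 23.5% of all genes were called, 2509 of 3042 as lower. Most of that sum was Ly6c2, which CD8 T cells also express, at a median of 1742 TPM over the CD8 set. The 7 gamma-delta and innate-like T cell markers in the table summed to 225 to 422 TPM and 34.2 to 201 TPM. Called as lower were 3 of the 4 tested, Tcrg-C1, Tcrg-C2 and Tcrg-C4. These made up nearly all of that sum, with medians of 23.7, 157 and 25.8 TPM over the CD8 set. The rest of the list had medians of at most 1.77 TPM. The 6 CD4 and regulatory T cell markers summed to 98.8 to 160 TPM and 26.5 to 80.1 TPM. Called as lower were 2 of the 6 tested, Ctla4 and Il2ra, with medians of 69.8 and 18.5 TPM over the CD8 set. Cd4 and Foxp3 had medians of only 1.18 and 0.661 TPM there. In the bulk tumour set the 3 sums were 777 to 1320 TPM, 106 to 392 TPM and 160 to 286 TPM with isotype, and 304 to 680 TPM, 34.9 to 111 TPM and 63.4 to 141 TPM with anti-PD-1, with 0 markers of these lists called in that comparison. The 7 endothelial markers other than Madcam1 went the other way, from 218 to 384 TPM with isotype and 432 to 2473 TPM with anti-PD-1 in the CD8 set, nearly all of it Pecam1, the 1 of 3 tested that was called as higher. Without libraries 16 and 19 the CD8 calls numbered 0 for the macrophage list, 1 for the gamma-delta list, 0 for the CD4 list and 0 for the endothelial list, and with median-ratio scaling they numbered 2, 2, 1 and 1 in the same order. None of the markers in these 4 lists was at 0 in every library. The markers of the sorted cells themselves were also lower with anti-PD-1 in the CD8 set. The 8 CD8 T cell markers summed to 6536 to 8554 TPM with isotype and 2364 to 7031 TPM with anti-PD-1. Their median difference was -0.66, beside -0.34 for all genes, and 1 of the 8 tested, Cd2, was called as lower. Fewer cells of a type, less RNA per cell and, in the CD8 set, the higher repeat share of the anti-PD-1 libraries cannot be told apart here.

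**Figure D5:**
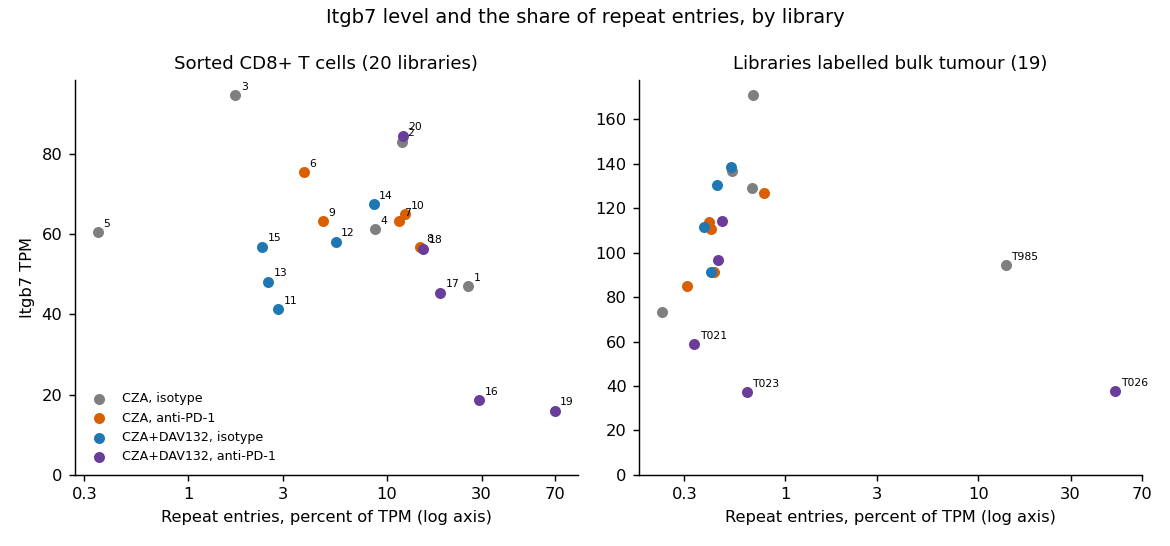
TPM of Itgb7 against the percentage of a library's TPM on repeat entries (log axis), with each library numbered in the CD8 set (left) and those above 5% or under 70 TPM numbered in the libraries labelled bulk tumour (right). CD8 libraries 16 and 19 combine the lowest Itgb7 with the most repeat TPM, whereas T021 and T023 are low in Itgb7 at under 1% of repeat TPM.

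The partner chains placed Itgb7 beside Itgb1 rather than beside Itga4. Median Itgb1, the beta1 chain, was 67.5 TPM in CD8 cells and 108 TPM in the other set, and its ratio to Itgb7 ran from 0.753 to 1.97 and from 0.791 to 1.94. Itgae, the alphaE chain that pairs with beta7 on intraepithelial T cells, had medians of 6.24 and 9.81 TPM and lay below Itgb7 in every library of both sets. As a description over 20 and 19 libraries, which share their scaling and repeat load, the Spearman correlation of Itgb7 was 0.77 and 0.73 with Itgb1, 0.72 and 0.61 with Itgae, and 0.20 and -0.25 with Itga4. Itga4 and Itgb1 gave -0.07 and -0.19. The levels of Itga4 and Itgb7 thus showed little common order across libraries, although their products form a single integrin.

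Ccr9, the receptor for CCL25 (ENSMUSG00000029530, chr9:123678439-123784330), was detected in every library at low level. Its CD8 levels were 0.192, 0.793, 0.947, 1.02 and 1.16 TPM with CZA and isotype and 0.263, 0.290, 0.309, 0.466 and 0.605 TPM with CZA and anti-PD-1. It was at 0.110, 0.322, 0.593, 0.701 and 1.35 TPM with CZA+DAV132 and isotype and at 0.553, 0.659, 0.709, 1.08 and 1.37 TPM with CZA+DAV132 and anti-PD-1. The CZA anti-PD-1 group was the lowest as a whole, and it overlapped the others. The differences were -0.37 for anti-PD-1 in the CZA arm (SE 0.22, limma adjusted p = 0.997), 0.24 in the CZA+DAV132 arm (SE 0.22, limma adjusted p = 0.458), 0.42 between the arms under anti-PD-1 (SE 0.22, limma adjusted p = 0.184) and 0.62 for the interaction (SE 0.32, limma adjusted p = 0.338). These are on the log2(TPM + 1) scale, which understates changes at such levels.

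Ccr9 in the libraries labelled bulk tumour ran from 0.344 to 2.99 TPM with CZA and isotype, from 0.0978 to 2.77 TPM with CZA and anti-PD-1, from 0.734 to 3.42 TPM with CZA+DAV132 and isotype and from 0.645 to 2.94 TPM with CZA+DAV132 and anti-PD-1. The 4 groups covered nearly the same range. Satellite and simple repeat entries together took up much of some libraries, and the share of each kind was not separated. An annotated transcript of Ccr9 that retains an intron carries a run of 30 bases of AC repeat, shown in capitals.
Ccr9 retained intron, chr9:123768586-123768645: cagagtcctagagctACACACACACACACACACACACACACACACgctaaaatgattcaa
The other 7 members have no run of at least 14 bases of a dinucleotide in their annotated transcripts. Median Ccl25, the ligand of CCR9, was 3.39 TPM in CD8 cells and 0.553 TPM in the other set. Ccr9 is also a marker of plasmacytoid dendritic cells. The 7 other dendritic cell markers summed to between 58.5 and 311 TPM in the CD8 set and between 66.1 and 223 TPM in the other. By median, most of that sum was Bst2, at 178 and 95.1 TPM, whereas Siglech had medians of 4.37 and 6.10 TPM. The sum is therefore no measure of these cells, and the cells that hold Ccr9 cannot be told apart here.

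Ccr6, the receptor for CCL20 (ENSMUSG00000040899, chr17:8236043-8257141), was above 0 in 15 of the 20 CD8 libraries. It was at 0.327, 0.338, 0.620, 0.635 and 1.19 TPM with CZA and isotype, where no library was at 0. With CZA and anti-PD-1 it was at 0, 0, 0.125, 0.139 and 0.429 TPM, with CZA+DAV132 and isotype at 0, 0.120, 0.281, 0.287 and 1.67 TPM, and with CZA+DAV132 and anti-PD-1 at 0, 0, 0.173, 0.182 and 0.351 TPM. The CZA isotype group was the only one with no library at 0, and library 13 of the CZA+DAV132 isotype group had the highest value. In the bulk tumour set Ccr6 was at 1.89 TPM in T021 and listed at 0 in the other 18. Ccl20, the ligand, was above 0 in 2 of the 20 CD8 libraries, at up to 0.247 TPM, and listed at 0 in all 19 others.

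Il17a and Il17f, which encode the signature cytokines of type 17 cells, lie near each other on chromosome 1 (ENSMUSG00000025929, chr1:20730905-20734496, and ENSMUSG00000041872, chr1:20777146-20790617). Il17a was above 0 in 10 of the 20 CD8 libraries. It was at 0, 0.176, 0.182, 0.400 and 0.534 TPM with CZA and isotype, and at 0, 0, 0.263, 0.399 and 0.785 TPM with CZA and anti-PD-1. With CZA+DAV132 it was above 0 in library 14 alone under isotype, at 1.36 TPM, and in libraries 18 and 19 under anti-PD-1, at 0.182 and 0.0590 TPM. By arm it was thus above 0 in 7 of 10 CZA libraries and 3 of 10 CZA+DAV132 libraries, counts given without a test since depth is unknown.

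Il17f was above 0 in 8 of the 20 CD8 libraries, at up to 0.527 TPM in library 3. The groups had 3, 2, 1 and 2 such libraries, in the order CZA with isotype, CZA with anti-PD-1, CZA+DAV132 with isotype and CZA+DAV132 with anti-PD-1. Il17a and Il17f were both above 0 in 4 libraries. Library 14, the highest for Il17a, had Il17f and Il23r at 0. The promoters shown above, with the same 3 motifs in each, thus belong to genes whose transcripts stayed at or below 1.36 TPM in every library.

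Il23r, the receptor chain for IL-23 (ENSMUSG00000049093, chr6:67422932-67491855), was above 0 in 8 of the 20 CD8 libraries and in 11 of the 19 libraries labelled bulk tumour. Among CD8 libraries it was above 0 in 4 of 5 libraries with CZA and isotype, in 0 of 5 with CZA and anti-PD-1, in 1 of 5 with CZA+DAV132 and isotype and in 3 of 5 with CZA+DAV132 and anti-PD-1, at no more than 0.242 TPM. In the other set the counts in the same order were 4 of 5, 2 of 5, 2 of 4 and 3 of 5, at no more than 0.516 TPM, which was reached in T029. The CD8 group in which Il23r was 0 throughout, CZA with anti-PD-1, had 2 libraries above 0 in the other set.

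Median Il23a, the specific chain of IL-23, was 0.0902 TPM in CD8 cells, and it was listed at 0 in all 19 libraries labelled bulk tumour. A zero at such levels can also come from depth, which TPM does not hold, and that was not tested.

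Madcam1, which encodes the venule ligand of the gut homing integrin (ENSMUSG00000020310, chr10:79664559-79668537), was above 0 in 7 of the 20 CD8 libraries. It was at 0.0613, 0.419 and 0.528 TPM in libraries 1, 3 and 4 with CZA and isotype, at 0.117, 0.116 and 0.2 TPM in libraries 12, 13 and 15 with CZA+DAV132 and isotype, and at 0.151 TPM in library 20 with CZA+DAV132 and anti-PD-1. It was listed at 0 in all 5 CD8 libraries with CZA and anti-PD-1 and in all 19 libraries labelled bulk tumour. Of the endothelial markers, Cdh5, Tek and Emcn had medians of at most 0.0377 TPM in the CD8 set and 0.0628 TPM in the other. Kdr had medians of 0.155 and 0.232 TPM, and Vwf, above 0 in every library, 0.968 and 1.86 TPM. Pecam1, which leukocytes also carry, had medians of 404 and 1304 TPM. Vcam1, the other vascular ligand of alpha4 integrins, had medians of 0.507 and 1.09 TPM.

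For the 5 members under the filter, a fit of all genes above 0 in any library gave no call. Over the 8 members and 5 comparisons the lowest adjusted p was 0.185 in the CD8 set, and over the 5 members above 0 it was 0.251 in the libraries labelled bulk tumour (limma). Those values belonged to Itgb7 and Itga4, which passed the filter. Among the members under the filter the lowest limma adjusted p was 0.286 in the CD8 set, for Il23r, and 0.757 in the other, for Ccr6. At levels below 1 TPM the log2(TPM + 1) scale compresses any difference, so this fit says little about them.

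Around the members, lists of 20 other gut homing genes and 34 other type 17 genes were examined. Among CD8 libraries, for anti-PD-1 against isotype in the CZA+DAV132 arm, 1 of the 16 gut homing genes tested was called as higher and 1 as lower, and of 21 type 17 genes tested 1 was called as higher and 4 as lower. The median difference was -0.32 for the first list and -0.21 for the second, beside -0.34 for all genes, of which 23.5% were called. The balance of the type 17 list turned with the scaling. With median-ratio scaling 5 of its genes were called as higher and 3 as lower, at a median of 0.23 beside -0.00273 for all genes. Without libraries 16 and 19 these were 2 and 1, at a median of 0.28 beside -0.0077. The gut homing list gave 2 as higher and 1 as lower with that scaling, and 0 and 1 without those libraries. In the main test all calls of the lists fell in this comparison; in the other 4 of the CD8 set and in all 5 of the bulk tumour set 0 genes of either list were called by limma.

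The genes called as lower in that comparison were Ccr7, Csf2, Il1b, Tgfb1 and Jak2. Ccr7, which guides T cells into lymph nodes, differed by -2.39 (limma adjusted p = 0.0052). Csf2, which encodes GM-CSF, differed by -2.72 (limma adjusted p = 0.00507) and Il1b by -2.27 (limma adjusted p = 0.00862). Ccr7 and Csf2 kept their calls under each alternative run, including the one without libraries 16 and 19, where they differed by -1.89 and -2.16. Tgfb1, whose product with IL-6 drives type 17 differentiation, differed by -1.32 (limma adjusted p = 0.011) and Jak2, a kinase of the IL-23 receptor, by -0.70 (limma adjusted p = 0.0396). Without libraries 16 and 19, Il1b, Tgfb1 and Jak2 were not called, at -2.04, -0.63 and -0.24. Tgfb1 was also not called with only the groups compared. Jak2 lost its call in 7 of 10 fits with a library left out, those without 11, 12, 13, 14, 15, 16 or 19, and in 5 of 7 other alternatives, and its adjusted p with single libraries left out reached 0.121.

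The genes called as higher were Il17ra and Ccl28. Il17ra, the receptor chain for IL-17A and IL-17F, was at 4.60, 5.69, 5.70, 5.75 and 7.63 TPM with isotype and at 6.60, 8.79, 11.0, 11.5 and 24.1 TPM with anti-PD-1, a difference of 0.85 (SE 0.27, limma adjusted p = 0.0288). The groups overlapped through library 16 at 6.60 TPM, and the highest value was that of library 19. Il17ra was not called without library 12, 13, 15 or 19 or with only the groups compared, with an adjusted p of up to 0.0741 when single libraries were left out. Without libraries 16 and 19 it differed by 0.74 (limma adjusted p = 0.0476). Ccl28, a mucosal chemokine, was at 0.814, 0.930, 1.06, 2.33 and 3.08 TPM with isotype and at 3.14, 4.21, 7.28, 7.47 and 11.2 TPM with anti-PD-1, with no overlap, in a comparison in which 23.5% of all genes were called. It differed by 1.51 (limma adjusted p = 0.0279) and was not called without libraries 16 and 19, at 1.51 (limma adjusted p = 0.0905). It also lost its call without library 11, 13, 15 or 16, with a pseudocount of 0.1 and with no filter. Annotated transcripts of Il17ra and Ccl28 carry dinucleotide runs of 34 and 50 bases, and those of the 5 genes called as lower carry none of 14 or more. The share of all genes with such runs was not counted, so this difference has no background to be read against. The part of these runs in the values was not tested.

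Some other components of type 17 signalling were present at clear levels, and others were low. Stat3, which carries the IL-23 and IL-6 signal, had medians of 83.8 and 193 TPM in the CD8 and bulk tumour sets, Rora, a nuclear receptor, 6.67 and 16.4 TPM, and Il17ra 8.47 and 18.1 TPM. Il22 was above 0 in 5 of the 20 CD8 libraries and in none of the other 19. Other receptor chains were low, with medians in the CD8 and bulk tumour sets of 0.344 and 0 TPM for Il17rc. Il17rd had 0.160 and 0.160 TPM, and Il17re 0.158 and 0.465 TPM. Stat3, Rora and Il17ra were thus expressed, and Il17a, Il17f and Il23r were low or listed at 0.

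The genes whose TPM ranked libraries most like a member were taken among genes with a mean of at least 5 TPM, as a description with no test. For Itgb7 they were Gle1, Etnk1 and Ubn1 in the CD8 set, with Spearman correlations of 0.93, 0.93 and 0.91 over 20 libraries, and Hspe1, Rpl3 and Mbp in the other, with 0.84, 0.82 and 0.82 over 19 libraries. For Itga4 they were Med1, Smim24 and Itpk1, with 0.79, 0.77 and 0.73, and Grip2, Prmt5 and Tmprss13, with 0.76, 0.75 and 0.74. For Ccr9 in the libraries labelled bulk tumour they were Zfp579, Alg9 and Rhebl1, with 0.80, 0.77 and 0.75. No gene appeared for a member in both sets, and libraries share their scaling, which raises all such values. Grip2 was listed at a very high level in the libraries labelled bulk tumour, from 4210 to 18985 TPM with a median of 8067 TPM. The source of that level was not tested.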

How the data were processed

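RNA was taken with a Monarch kit, depleted of ribosomal RNA with RiboCop and made into strand-specific libraries with the NEBNext Ultra II Directional kit, per the labels' protocols. The authors deposited 2 tables of TPM, 1 a set, made with kallisto 0.45 and GRCm38 per the submitters' processing notes. Neither the annotation nor the step from transcripts to genes is stated in the sources at hand. Since kallisto divides ambiguous reads between transcripts, values of genes that contain repeats are uncertain.

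Gene identifiers and coordinates come from GENCODE M21, an annotation of GRCm38 that matched 27787 of 28023 symbols. Promoters come from RefSeq (GRCm38.p6). Repeat entries are symbols with a transcript of which at least 50% consists of dinucleotide runs of at least 14 bases, or shares stretches of 12 bases with the satellite family of Gm10800 (transcripts of up to 5000 bases). All value columns were used, and 0 pairs of columns were identical.

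Each set was fitted alone with limma 3.58.1 in R 4.3.3 on log2(TPM + 1), with 4 group means and moderation by empirical Bayes with a trend on the mean. The filter of 1 TPM in 4 or more libraries left 12942 genes of the CD8 set and 13326 of the bulk tumour set. P-values are two-sided and adjusted over all of them by the Benjamini-Hochberg method. The fit was tested on simulated data. The alternatives were a pseudocount of 0.1, median-ratio scaling, array weights, no filter, a mean of 5 TPM as the filter, only the groups compared, each library left out, and CD8 libraries 16 and 19 or T026 and T985 left out together. Other figures were made in Python 3.11.15.

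The members, the lists and the libraries left out together were chosen with earlier results of these data known. Named genes are the 8 members, the list genes that passed, partner genes (Itgb1, Itgae, Ccl20, Ccl25, Vcam1, Il17ra and Il23a) and, for each member with a mean of at least 1 TPM, the 3 genes most like it. Stat3, Rora, Il22, Pecam1, Cdh5, Tek, Emcn, Kdr, Vwf and Ly6c2 were named after their values were seen. So were Ctla4, Il2ra, Cd4, Foxp3, Tcrg-C1, Tcrg-C2, Tcrg-C4, Bst2, Siglech, Thy1, Col1a1, Il17rc, Il17rd and Il17re. A partner gene and a marker gene are not reported here. The symbols Trdc and Siglecf of the marker lists were not matched.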

Additional observations from a re-analysis of the deposited data

Results flagged for a closer look

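The library farthest from its group was beyond Dixon's 95% limit in 7 of the 47 combinations of member, set and group with any value above 0. Chance alone flags about 1 in 20 such groups. In the CD8 set with CZA+DAV132 and isotype these were Ccr6 in library 13 at 1.67 TPM, Il17a in library 14 at 1.36 TPM, Il17f in library 11 at 0.444 TPM and Il23r in library 12 at 0.124 TPM, a different library for each gene. The others were Il17f in library 3 with CZA and isotype at 0.527 TPM, Madcam1 in library 20 with CZA+DAV132 and anti-PD-1 at 0.151 TPM, and Ccr6 in T021 of the libraries labelled bulk tumour at 1.89 TPM. A group with a single value above 0 meets the limit by construction, and 5 of these 7 groups were of that kind. The exceptions were Ccr6 in library 13, where 3 of the other 4 libraries were above 0, and Il17f in library 3, where 2 of the other 4 were.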

How the results depend on the processing

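Of 545 values of the 3 tested members under the alternatives, 502 kept their direction and their side of the threshold, 38 changed direction and 5 were called that had not been. For anti-PD-1 in the CZA+DAV132 arm 1 member, Itga4, was called in the CD8 set with median-ratio scaling and with array weights, and in the libraries labelled bulk tumour with array weights. With single libraries left out the number of members called ran from 0 to 1 in the CD8 set, for anti-PD-1 in the CZA+DAV132 arm and for the arms under anti-PD-1, and the 1 was Itgb7 without library 20. The causes were not tested.

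No paired analysis was possible because the groups share no replicate numbers.

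In the CD8 set Itgb7 turned to 0.161 for anti-PD-1 in the CZA+DAV132 arm without libraries 16 and 19, and for the interaction to 0.2207 there and 0.0172 with array weights. Itga4 between the arms under anti-PD-1 turned to 0.3696 with median-ratio scaling, 0.066 with array weights and 0.143 without libraries 16 and 19. In the other set Itga4 for anti-PD-1 in the CZA arm turned to -0.0241 with median-ratio scaling, Itgb7 between the arms under isotype to -0.1498 with that scaling and -0.0679 without T026 and T985, and Ccr9 between the arms under anti-PD-1 to -0.0523 with array weights and for the interaction to 0.1332 with a pseudocount of 0.1 and 0.2281 with median-ratio scaling.

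With single libraries left out, values that crossed 0 ran as follows. In the CD8 set Itga4 ran from -0.183 to 0.3254 and Itgb7 from -0.1861 to 0.062 for anti-PD-1 in the CZA arm, and Itga4 from -0.3547 to 0.1665 between the arms under anti-PD-1. In the other set Itga4 ran from -0.0463 to 0.4104 and Ccr9 from -0.4322 to 0.0132 for anti-PD-1 in the CZA arm, Itga4 from -0.0703 to 0.4277 and Itgb7 from -0.158 to 0.1448 between the arms under anti-PD-1 and under isotype, and Ccr9 from -0.2836 to 0.1779 for the interaction.

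The number of all genes called moved more. For anti-PD-1 in the CZA+DAV132 arm of the CD8 set it was 3042 (533 higher, 2509 lower), 3299 with median-ratio scaling (1471 higher, 1828 lower), 1192 without libraries 16 and 19, and 1792 to 4440 with single libraries left out. Between the arms under anti-PD-1 it was 5, and 1365 with the filter of a mean of 5 TPM or up to 3975 without library 20. In the libraries labelled bulk tumour it was 32 for anti-PD-1 in the CZA+DAV132 arm, and 0 to 308 over the alternatives. Depth is unknown in all libraries, so levels below 1 TPM carry no known precision.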
